A study of Mus musculus with 8 samples.

Results

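The genes described here are those of the mitochondrial genome and the nuclear genes of the mitochondrial ribosome, measured in antigen-specific mouse CD4 T cells. They were chosen by name. One subset holds every protein-coding or ribosomal RNA gene whose symbol starts with mt-, and the other every protein-coding gene whose symbol starts with Mrpl or Mrps. The count files list 39179 genes, of which 92 are members, with 15 in the mt- subset (13 protein-coding and 2 ribosomal RNA genes) and 77 in the other (48 Mrpl and 29 Mrps genes). A filter on low counts passed 90 of the 92, namely 14 mt- members, 47 Mrpl members and 29 Mrps members. Those left out were mt-Nd4l and Mrpl53. Mrpl33 is not analysed here.

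Mitochondria keep a small circular genome that encodes a few subunits of the respiratory chain and of ATP synthase, the 2 ribosomal RNAs of the mitochondrial ribosome and a set of transfer RNAs. It is copied into long RNAs that span many genes and are then cut apart, so the mt- transcripts start from shared precursors. The proteins of the mitochondrial ribosome are encoded in the nucleus, with Mrpl genes named for the large subunit and Mrps genes for the small one, and are imported. The mitochondrial ribosome therefore needs output from both genomes, and activated T cells are known to expand their mitochondria and respiration.

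The libraries compared were of 4 kinds, with 2 libraries each: Tfh cells with the Bach2 vector, Tfh cells with the empty vector, non-Tfh cells with the Bach2 vector and non-Tfh cells with the empty vector. Tfh cells are the CD4 helper cells of the B cell follicle, sorted as Thy-1.1+ CD44hi CXCR5+ PD-1+, and the non-Tfh cells as CXCR5- PD-1-. All 4 groups came from T cells with the Smarta receptor transgene and CreERT2, a tamoxifen-activated recombinase, so the control cells carry both and received tamoxifen as well. The cells were transduced with a retrovirus, placed in C57BL/6 hosts and exposed to the receptor's peptide GP61-80 with nitrophenol on mouse serum albumin under the skin. Tamoxifen was injected on day 5 and the pooled inguinal nodes were taken 18 hours later, on day 6. Bach2 encodes a transcription repressor, and its expression here is ectopic, from a viral vector. The labels give no ages of mice and do not say that replicates are separate animals, so p-values measure the spread between these libraries, which may be technical.

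The 8 libraries held 7862879 to 9889859 counts over genes. Bach2 checked the vector labels, with 120.7 and 134.7 normalised counts (CPM, scaled to a library's total) in Bach2 Tfh cells, against 11.2 and 14.03 CPM in empty vector Tfh cells. It had 130.4 and 157.4 CPM in Bach2 non-Tfh cells, against 24.8 and 28.9 CPM in empty vector non-Tfh cells. The B cell markers Cd79a, Ms4a1, Pax5 and Blk were between 0 and 3.05 CPM in all 8 libraries, and those of red cells between 0 and 2 counts. Cd22, which is also on the B cell list, had 157.3 to 230.1 CPM in Tfh libraries, against 77.7 to 124.3 CPM in non-Tfh libraries. The 6 general T helper markers summed to 10366 to 11724 CPM in Tfh libraries, against 8032 to 8396 CPM in non-Tfh libraries. Thy1 of that list went the other way, with 65.6 to 82.8 CPM in Tfh libraries, against 88.1 to 115.1 CPM in non-Tfh libraries. The 6 Tfh markers, which include the sorted proteins' genes, summed to 2085 to 2918 CPM in Tfh libraries, against 894.9 to 1383 CPM in non-Tfh libraries. Their sum was lower with Bach2 in both cell types, at 2429 and 2085 CPM in Bach2 Tfh cells, against 2918 and 2609 CPM in empty vector Tfh cells, and 1009 and 894.9 CPM in Bach2 non-Tfh cells, against 1383 and 1302 CPM in empty vector non-Tfh cells. For Bach2 averaged over both cell types 3 of the 6 were called lower, beside 2.9% of all genes tested called lower and 2.37% higher. Icos of that list went the other way between the cell types. It had 541.7 and 585.8 CPM in Bach2 Tfh cells, against 692.5 and 640.6 CPM in Bach2 non-Tfh cells. With the empty vector it had 584.6 and 746.1 CPM in Tfh cells, against 937 and 914.5 CPM in non-Tfh cells. The 3 natural killer cell markers summed to 54.5 to 93.9 CPM in Tfh libraries, against 10.8 to 22.1 CPM in non-Tfh libraries, nearly all of it from Klrb1c, with Ncr1 at 0 in all. Klre1 of that list went the other way, with 0.108 to 0.301 CPM in Tfh libraries, against 1.31 to 4.69 CPM in non-Tfh libraries. The 6 myeloid markers summed to 75.4 to 92.1 CPM in Tfh libraries, against 79.5 to 91.9 CPM in non-Tfh libraries. Within that list Cd68 had 4.22 to 9.35 CPM in Tfh libraries, against 0.872 to 2.22 CPM in non-Tfh libraries, and Itgax 0 to 0.362 CPM, against 1.53 to 4.31 CPM. The 4 stromal markers summed to 228.8 to 280.8 CPM in Tfh libraries, against 176.4 to 204.8 CPM in non-Tfh libraries, nearly all of it from Pecam1, with Pdpn at 0 in all. The part of these markers in the differences between vectors and between cell types below was not tested.

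The mitochondrial genome packs its genes end to end, and some neighbouring genes share bases, which bears on how their counts can be read. Counts here are per gene, and overlapping genes need not be separate RNAs. The sequences below are given 5′ to 3′ on the + strand of the GRCm38 mitochondrial chromosome, read from GENCODE M21 transcripts. Shown first is the whole of mt-Atp8, chrM:7766-7969, with the 43 bases that it shares with mt-Atp6 in capitals. Next is the last stretch of mt-Nd4l, chrM:10074-10173, with the 7 bases shared with mt-Nd4 in capitals. Last is a stretch of the large ribosomal RNA mt-Rnr2, chrM:1362-1561, with 3 runs of 6 or more adenines in capitals.
mt-Atp8: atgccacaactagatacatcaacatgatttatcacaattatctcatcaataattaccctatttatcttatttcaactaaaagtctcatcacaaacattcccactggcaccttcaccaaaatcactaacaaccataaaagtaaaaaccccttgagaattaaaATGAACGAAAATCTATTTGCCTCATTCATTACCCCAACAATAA
mt-Nd4l: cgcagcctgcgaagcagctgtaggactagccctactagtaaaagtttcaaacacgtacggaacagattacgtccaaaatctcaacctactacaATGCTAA
mt-Rnr2: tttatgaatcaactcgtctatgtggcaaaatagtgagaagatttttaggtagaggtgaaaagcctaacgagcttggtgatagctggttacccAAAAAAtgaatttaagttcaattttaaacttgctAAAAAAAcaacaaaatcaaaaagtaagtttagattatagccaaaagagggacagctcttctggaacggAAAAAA
The shared stretch made up 21.1% of mt-Atp8 but 6.31% of mt-Atp6. The sources used here do not say how reads within such an overlap were assigned. mt-Atp6 also shares 1 base with mt-Co3. mt-Nd6 lies on the other strand and shares 14 bases with mt-Nd5, and the library kit does not mark the strand. mt-Rnr2 holds 4 runs of 6 or more adenines over its 1582 bases, whereas mt-Rnr1 holds none over 955 bases. Such runs are shown because the library kit primes on poly(A) tails, and their part in the levels was not tested. mt-Nd2 held 3 such runs, and mt-Nd4 and mt-Nd5 held 2 each.

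The mt- subset was spread over a wide range of levels. Scaled by transcript length, mt-Atp6, a subunit of ATP synthase, was highest at 2681 CPM per kb over the 8 libraries. It was followed by mt-Co3 at 2088 CPM per kb, a subunit of cytochrome c oxidase like mt-Co2 and mt-Co1, which stood at 1132 and 1130 CPM per kb. mt-Atp8, the other mitochondrially encoded ATP synthase subunit, had 1003 CPM per kb and mt-Cytb, of complex III, had 814 CPM per kb. Transcripts for complex I, the NADH dehydrogenase, were lower, with 537 CPM per kb for mt-Nd1, 263 for mt-Nd4, 186 for mt-Nd3, 164 for mt-Nd6, 161 for mt-Nd5 and 130 for mt-Nd2. The ribosomal RNAs stood far apart from each other. mt-Rnr2 of the large subunit had 967 CPM per kb, while mt-Rnr1 of the small subunit had 51.2 CPM per kb. mt-Nd4l had 0 to 3 counts a library, at or under the limit of 3 counts that a count of 0 allows (0.303 to 0.382 CPM), and no fold change is given for it. Of 22 mitochondrial tRNA genes, which are not members, 3 passed the filter.

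**Figure D1:**
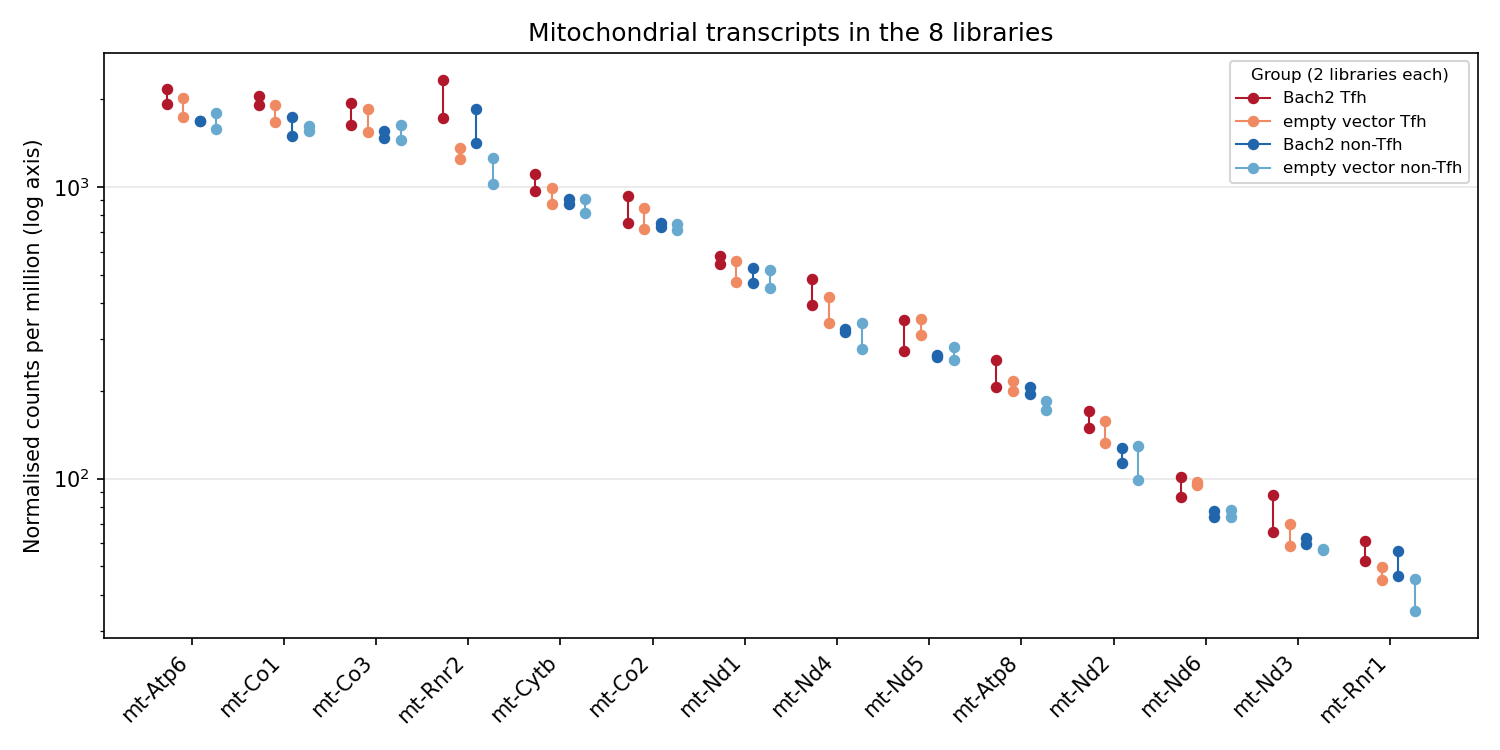
Level of the 14 mt- members tested in each of the 8 libraries, in CPM on a log axis, with the 2 libraries of a group joined by a line. The groups of most genes lie close together at each level, and mt-Rnr2 is higher in both Bach2 groups than in their empty vector groups. mt-Nd6 separates all 4 Tfh libraries (86.4 to 100.9 CPM) from all 4 non-Tfh libraries (73.6 to 77.8 CPM). So does mt-Nd2, with 132.0 to 170.6 CPM in Tfh libraries, against 99.2 to 129.7 CPM in non-Tfh libraries.

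The nuclear subset was lower and narrower. The 76 Mrpl and Mrps members tested had mean levels of 12.7 to 117.2 CPM, with a median of 46.1 CPM, and 67 of them lay between 20 and 80 CPM. Per kb of the principal transcript, Mrps21 was highest at 150.6 CPM per kb, followed by Mrpl52 at 122.6 and Mrpl42 at 122.3 CPM per kb, and the median was 29.4 CPM per kb. The lowest tested were Mrpl47 at 3.78, Mrps25 at 4.22 and Mrpl48 at 6.36 CPM per kb. Mrpl53 had 0.104 CPM per kb and shares 88.0% of its exonic bases with Gm42688 on the same strand. In all, 30 of the 77 share exonic bases with another gene in the files, among them Mrps25, which shares 69.8% with Nr2c2 on the opposite strand. The counts of such genes are uncertain, since strand and overlap handling are not stated. Some members are known to sit outside the role that their names give. Mrps30 and Mrps18a, which are now placed in the large subunit, averaged 48.9 and 45.5 CPM, and Mrps36, a subunit of the oxoglutarate dehydrogenase complex, averaged 14.98 CPM. None of these 3 passed the threshold in any comparison.

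As a share of all counts, the mt- members took 1.26% and 1.082% in Bach2 Tfh cells, against 1.10% and 0.952% in empty vector Tfh cells. They took 0.986% and 0.944% in Bach2 non-Tfh cells, against 0.944% and 0.859% in empty vector non-Tfh cells. The Bach2 libraries overlapped the empty vector libraries within each cell type. The Mrpl and Mrps members together took 0.355% and 0.335% in Bach2 Tfh cells, against 0.366% and 0.396% in empty vector Tfh cells. Their share was 0.369% and 0.341% in Bach2 non-Tfh cells, against 0.361% and 0.381% in empty vector non-Tfh cells. The vector groups did not overlap in Tfh cells and did in non-Tfh cells. Wilson 95% intervals extended at most 0.00716 percentage points to either side for the mt- share and 0.00439 for the nuclear one, and cover counting error only. The spread between replicates was far wider than these intervals. In bulk samples, fewer cells of a type and less RNA per cell cannot be told apart.

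**Figure D2:**
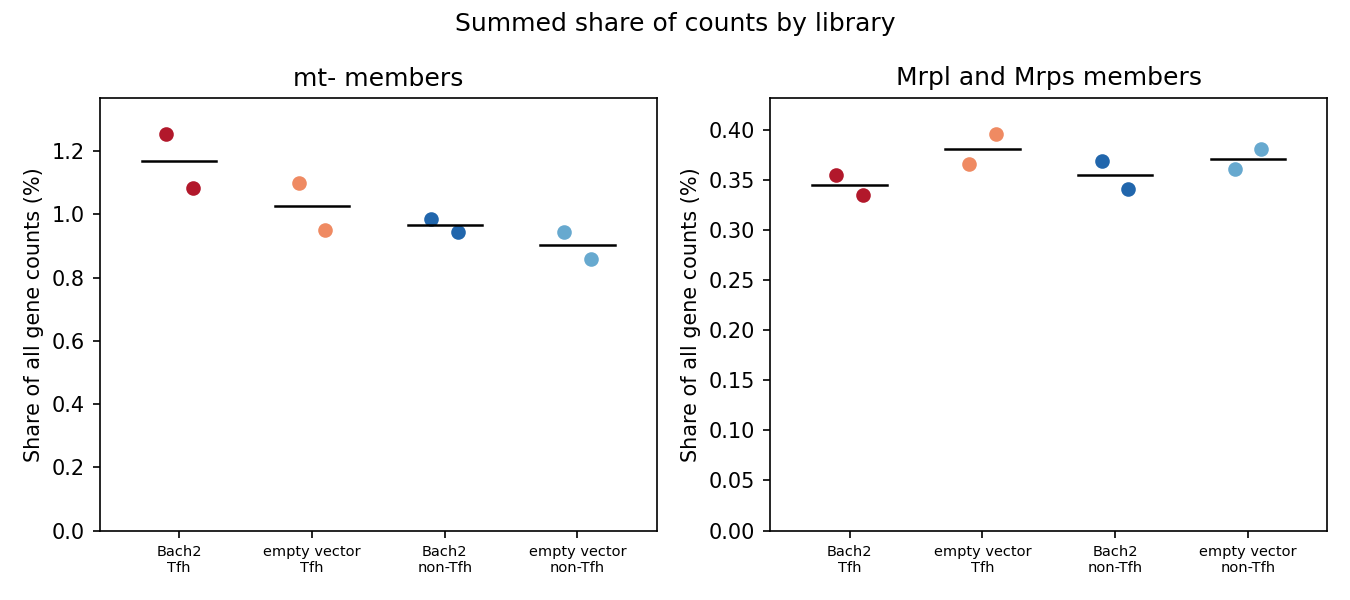
Summed share of all gene counts in percent, for the mt- members at the left and the Mrpl and Mrps members at the right, by group. Points are libraries and bars are means of 2. The mt- share averaged 1.17 ± 0.123% in Bach2 Tfh cells and 1.03 ± 0.105% in empty vector Tfh cells, while the Mrpl and Mrps share averaged 0.345 ± 0.0140% in Bach2 Tfh cells and 0.381 ± 0.0213% in empty vector Tfh cells (SD, n = 2 each).

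Replicates of a group tended to differ in the same direction across a subset, except for the mt- members in Bach2 non-Tfh cells, and this limits how small a group difference can be read. Taking replicate 1 minus replicate 2, the median mt- member differed by 0.24 on the log2 scale in Bach2 Tfh cells, 0.21 in empty vector Tfh cells, 0.02 in Bach2 non-Tfh cells and 0.16 in empty vector non-Tfh cells. In Bach2 Tfh cells all 14 of them were higher in replicate 1. The median Mrpl or Mrps member differed by 0.09, -0.10, 0.09 and -0.06 in those groups. Members of a subset therefore cannot be taken to vary independently, and a count of members that lean one way is not a count of separate observations. The median biological coefficient of variation was 8.36% for the mt- members and 7.82% for the 4534 genes in their range of CPM. It was 8.87% for the Mrpl and Mrps members and 9.499% for the 5891 genes in theirs.

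The first question was whether Bach2 altered these genes in Tfh cells. No member passed the threshold, an adjusted p below 0.05 in the quasi-likelihood test of edgeR, adjusted by Benjamini-Hochberg over the 11475 genes tested. In this comparison 0.549% of all genes tested were called higher and 1.16% lower. Without adjustment, 1 of 14 mt- members and 10 of 76 Mrpl or Mrps members (13.2%) had p below 0.05, no larger a share than the 15.9% of all genes. DESeq2 called no member either. The mt- members had a median log2 fold change of 0.14, with 12 of 14 estimates above 0. The Mrpl and Mrps members had a median of -0.14, with 67 of 76 estimates below 0, against a median of 0.00 and 50.1% below 0 over all genes tested. The mt- shift was smaller than the median differences between replicates of the Tfh groups given above (0.24 and 0.21). The Mrpl and Mrps shift was larger in this fit than those of its own subset (0.09 and -0.10). Over 15 alternatives that shift ran from -0.19 to -0.07, and the smallest was within those differences.

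In non-Tfh cells the same comparison gave smaller values. Again no member passed the threshold, beside 0.253% of all genes called higher and 0.619% called lower. Unadjusted p was below 0.05 for 2 mt- members, both ribosomal RNAs, and for 0 Mrpl or Mrps members, beside 10.3% of all genes, and DESeq2 called none. The median log2 fold change was 0.04 for the mt- members and -0.08 for the Mrpl and Mrps members, with 56 of 76 estimates below 0. Most Mrpl and Mrps estimates were thus below 0 in each cell type, without a member passing the test in either. The shift of -0.08 lay in size between the replicate differences of the non-Tfh groups (0.09 with Bach2 and -0.06 with the empty vector).

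The ribosomal RNA of the large mitochondrial subunit was the member that stood out with Bach2. mt-Rnr2 (chromosome M, 1094 to 2675, + strand) had 2337 and 1730 CPM in Bach2 Tfh cells, against 1359 and 1252 CPM in empty vector Tfh cells. In non-Tfh cells it had 1852 and 1415 CPM with Bach2, against 1262 and 1025 CPM with the empty vector. Both Bach2 libraries lay above both empty vector libraries in each cell type. Groups of 2 libraries separate easily, and the share of all genes tested that do so was not counted. Such separation, here and below, is therefore a description and not added support. The log2 fold change was 0.64 in Tfh cells (SE 0.18, edgeR adjusted p = 0.142) and 0.51 in non-Tfh cells (SE 0.18, edgeR adjusted p = 0.376), past the threshold in neither. Averaged over both cell types it rose by 0.58 (SE 0.13, edgeR adjusted p = 0.0451), where 2.37% of all genes tested were called higher and 2.9% lower. That call was lost when any 1 of the 4 empty vector libraries was left out, with adjusted p from 0.0586 to 0.212, and the estimate then stayed between 0.51 and 0.66.

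Its partner mt-Rnr1, the ribosomal RNA of the small subunit, had 61.2 and 52.3 CPM in Bach2 Tfh cells, against 49.6 and 44.8 CPM in empty vector Tfh cells. In non-Tfh cells it had 56.3 and 46.5 CPM with Bach2, against 45.3 and 35.1 CPM with the empty vector. The groups did not overlap here either, but the averaged log2 fold change of 0.31 (SE 0.11, edgeR adjusted p = 0.110) did not pass. The averaged fold changes of the 12 mitochondrial protein-coding genes tested ran from -0.06 to 0.18 on the log2 scale and none passed, the highest being mt-Nd3. mt-Rnr2 had 22.8 and 19.4 counts per 100 counts of the mt- mRNAs in Bach2 Tfh cells, against 14.3 and 15.3 in empty vector Tfh cells. The ratio was 23.4 and 17.6 in Bach2 non-Tfh cells, against 15.2 and 13.6 in empty vector non-Tfh cells. All 4 Bach2 libraries exceeded all 4 empty vector libraries in this ratio, which was formed after the values were seen and was not tested.

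**Figure D3:**
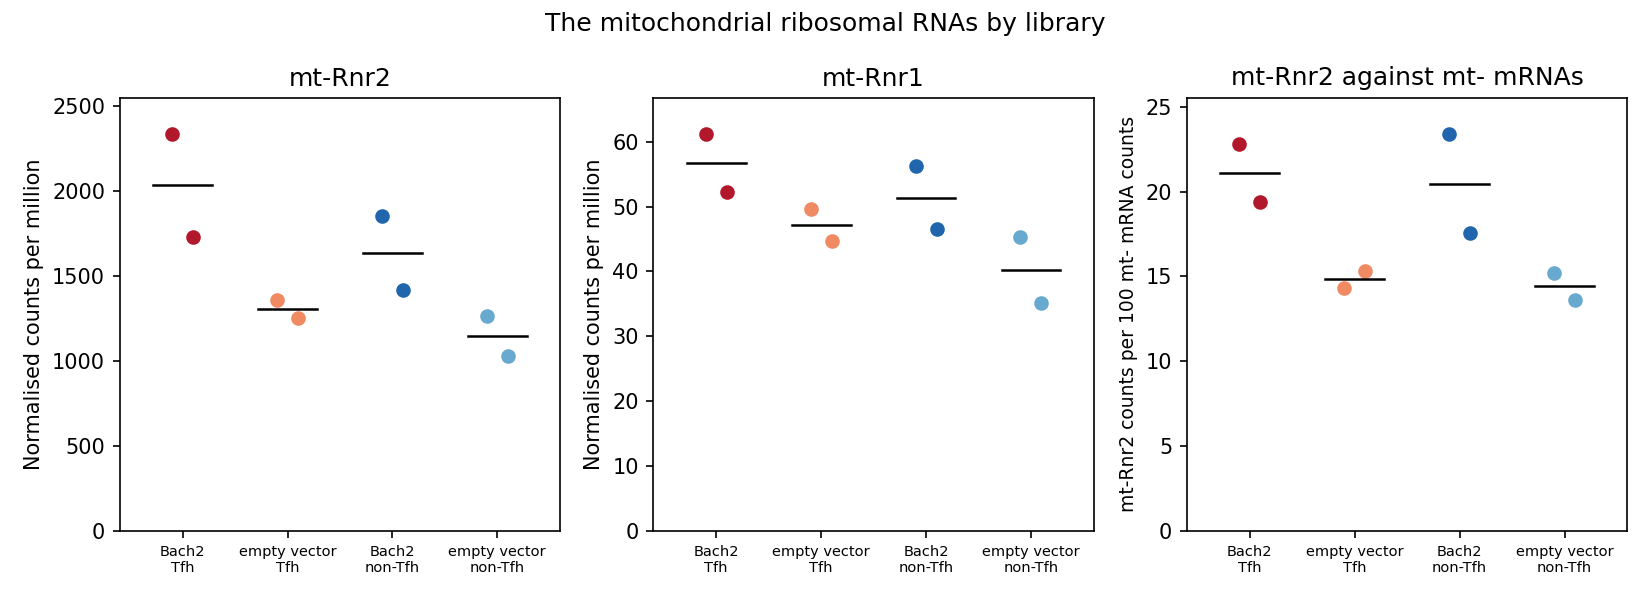
The 2 mitochondrial ribosomal RNAs by group, in CPM (left and middle), and mt-Rnr2 per 100 counts of the mt- mRNAs (right). Points are libraries and bars are means of 2. In the right panel the Bach2 libraries span 17.6 to 23.4 and the empty vector libraries 13.6 to 15.3.

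Among the Mrpl and Mrps members no gene passed the threshold for Bach2 averaged over both cell types, and DESeq2 called 0. An unadjusted p below 0.05 was found for 10 of 76 (13.2%), less than the 20.2% of all genes. Their median log2 fold change was -0.12, with 43 of 47 Mrpl and 23 of 29 Mrps estimates below 0. The 4 members with the largest averaged changes, none past the threshold, were Mrps28 at -0.31 (SE 0.10, edgeR adjusted p = 0.0926), Mrpl42 at -0.24, Mrps18b at -0.22 and Mrpl17 at -0.22. Mrps28, a small-subunit protein, had 18.4 and 18.5 CPM in Bach2 Tfh cells, against 24.6 and 22.5 CPM in empty vector Tfh cells, and 22.7 and 23.4 CPM in Bach2 non-Tfh cells, against 27.9 and 27.8 CPM in empty vector non-Tfh cells. Its groups did not overlap in either cell type. Mrpl42 passed when Bach2 Tfh replicate 1 was left out (log2 fold change -0.34, edgeR adjusted p = 0.0243). In Tfh cells alone the largest estimates were -0.45 for Mrpl23, -0.36 for Mrpl27, -0.35 for Mrps28 and -0.33 for Mrps25. In non-Tfh cells they were -0.31 for Mrps22, -0.29 for Mrpl1, -0.27 for Mrps28 and -0.23 for Mrps18b, and none of these 8 passed. Proteins that the mitochondrial ribosome shares with bacteria, 44 of the 76, had an averaged median of -0.13, close to that of all 76.

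**Figure D4:**
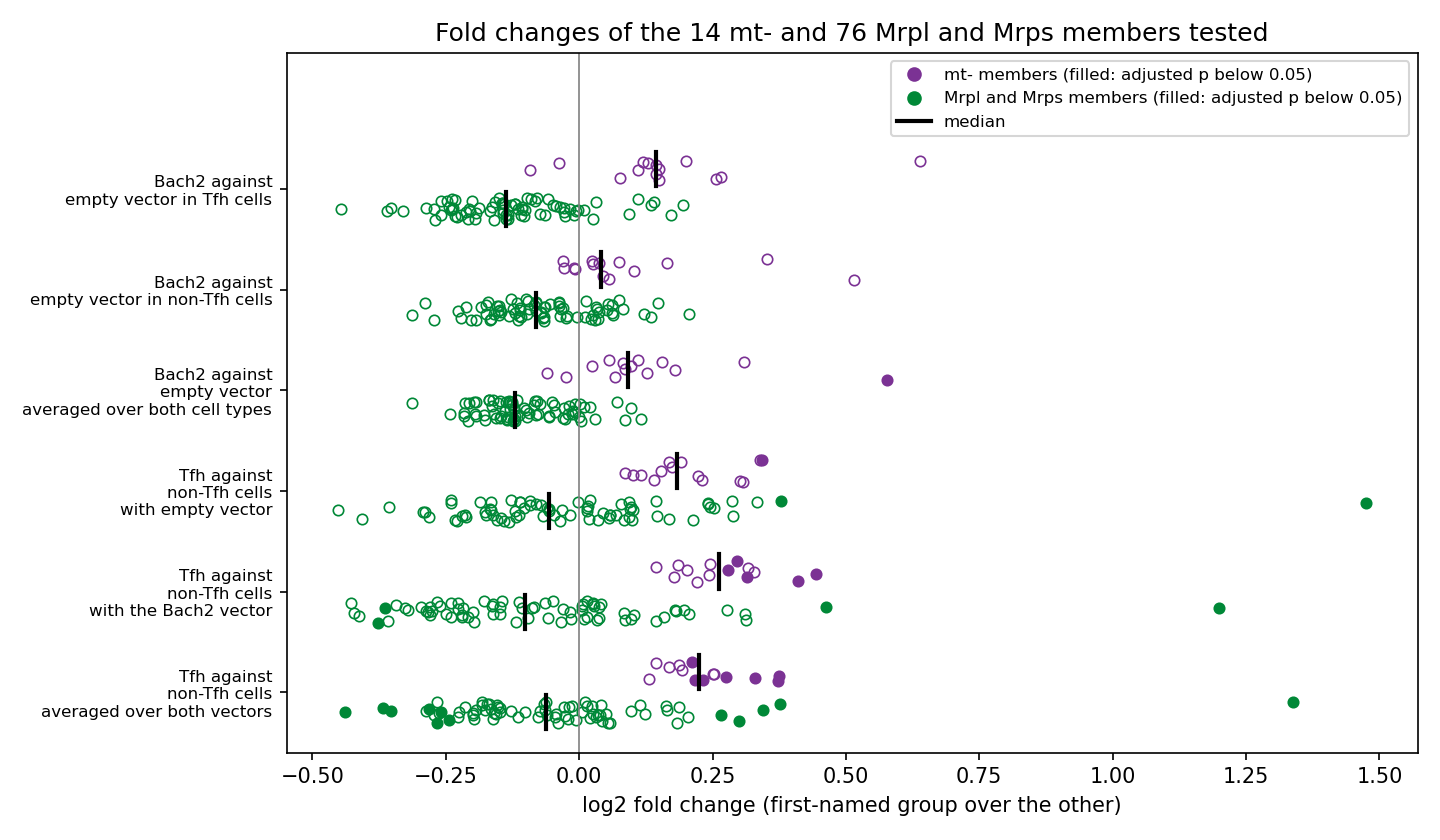
Log2 fold changes of the 14 mt- members (purple) and 76 Mrpl and Mrps members (green) in 6 comparisons, with the first-named group over the other. Each point is a gene, filled where edgeR's adjusted p is below 0.05, and black bars are medians. The mt- medians run from 0.04 to 0.26 and lie above 0 in every comparison shown, while the Mrpl and Mrps medians run from -0.14 to -0.06.

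Whether the Bach2 effect differed between the cell types was tested as an interaction. It called 0% of all genes higher and 0% lower, with 539 genes at an unadjusted p below 0.05 and 4 genes called by DESeq2, none of them members. Mrpl23, a large-subunit protein, was the 1 member with an unadjusted p below 0.05, with an interaction of -0.57 on the log2 scale (SE 0.22, edgeR adjusted p = 0.953). The largest after it were 0.42 for Mrpl47, -0.41 for Mrpl48 and -0.33 for Mrpl27. mt-Rnr2 had an interaction of 0.13 (SE 0.25), whose sign turned when single libraries were left out.

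The second question was how Tfh cells differ from non-Tfh cells. The mt- members leaned toward Tfh cells in both vectors, which share no libraries. With the empty vector all 14 estimates were above 0, the median log2 fold change was 0.18, and 1 of 14 was called higher, beside 10.6% of all genes called higher and 11.3% lower. With Bach2 all 14 were again above 0, the median was 0.26, and 5 of 14 were called higher, beside 11.6% of all genes called higher and 12.7% lower. Averaged over both vectors, a comparison added after the data were seen, 7 of 14 rose and the median was 0.22, beside 18.1% of all genes called higher and 19.2% lower. None was lower in Tfh cells in any of the 3 comparisons. The empty vector median of 0.18 lay between the median replicate differences of its own groups (0.21 in Tfh and 0.16 in non-Tfh cells). The Bach2 median of 0.26 was slightly above that of Bach2 Tfh cells (0.24), with 0.02 in Bach2 non-Tfh cells. The mt- members do not vary independently, so 14 of 14 is not 14 separate observations.

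The 7 that rose in the average were mRNAs of complex I (mt-Nd2, mt-Nd4, mt-Nd5 and mt-Nd6), of cytochrome c oxidase (mt-Co1) and of ATP synthase (mt-Atp6 and mt-Atp8). mt-Nd6, the one gene of the group that is read from the other strand, had 100.9 and 86.4 CPM in Bach2 Tfh cells, against 73.6 and 77.1 CPM in Bach2 non-Tfh cells. With the empty vector it had 95.4 and 97.1 CPM in Tfh cells, against 77.8 and 73.9 CPM in non-Tfh cells. All 4 Tfh libraries lay above all 4 non-Tfh libraries. Its log2 fold change was 0.31 with Bach2 (SE 0.10, edgeR adjusted p = 0.0390), 0.34 with the empty vector (SE 0.10, edgeR adjusted p = 0.0282) and 0.33 in the average (SE 0.07, edgeR adjusted p = 0.00268). The call with Bach2 was lost in 9 of 15 alternatives, and the estimate ran from 0.20 to 0.42 over them all.

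mt-Nd2 had 170.6 and 149.4 CPM in Bach2 Tfh cells, against 113.5 and 127.4 CPM in Bach2 non-Tfh cells, and 157.2 and 132.0 CPM in empty vector Tfh cells, against 129.7 and 99.2 CPM in empty vector non-Tfh cells. Its averaged log2 fold change was 0.37 (SE 0.09, edgeR adjusted p = 0.00790). mt-Nd4 had 482.5 and 393.0 CPM in Bach2 Tfh cells, against 324.7 and 318.7 CPM in Bach2 non-Tfh cells, and 421.1 and 340.8 CPM in empty vector Tfh cells, against 340.8 and 278.0 CPM in empty vector non-Tfh cells. Its groups met at 340.8 CPM with the empty vector, and the averaged log2 fold change was 0.37 (SE 0.09, edgeR adjusted p = 0.00851). The averaged log2 fold changes of the other called members were 0.28 for mt-Nd5, 0.23 for mt-Co1, 0.22 for mt-Atp6 and 0.21 for mt-Atp8. The other protein-coding members had averaged values of 0.25 for mt-Nd3, 0.19 for mt-Co3, 0.17 for mt-Cytb, 0.14 for mt-Co2 and 0.13 for mt-Nd1, and the ribosomal RNAs 0.25 for mt-Rnr2 and 0.19 for mt-Rnr1, none of which passed.

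These mt- calls rest on few libraries. With Bach2, mt-Nd4, mt-Nd2, mt-Nd6, mt-Co1 and mt-Atp6 were called, and the count stood at 0 without Bach2 Tfh replicate 1 or without Bach2 non-Tfh replicate 1, to 1 without Bach2 non-Tfh replicate 2 and to 3 without empty vector non-Tfh replicate 2, but at 11 without Bach2 Tfh replicate 2. With the empty vector the 1 call, mt-Nd6, was lost without any 1 of the 4 empty vector libraries (edgeR adjusted p from 0.0881 to 0.186). In the average the count of 7 stood at 3 without empty vector Tfh replicate 1 or empty vector non-Tfh replicate 2, at 4 without Bach2 Tfh replicate 1 and at 12 without Bach2 Tfh replicate 2. The median stayed between 0.14 and 0.28.

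The Mrpl and Mrps members did not follow the mt- members between the cell types. In the average over both vectors 5 of 76 were higher in Tfh cells and 7 of 76 lower, both smaller shares than among all genes tested. Their median log2 fold change was -0.06 in the average, with 27 of 47 Mrpl and 22 of 29 Mrps estimates below 0. With the empty vector 2 were called higher and 0 lower (median -0.06), and Mrps18b at -0.45 and Mrpl47 at -0.41 did not pass, and with Bach2 2 higher and 2 lower (median -0.10). The averaged count of 12 stood at 6 without empty vector Tfh replicate 1 and at 7 without empty vector non-Tfh replicate 1. The difference between the subsets themselves was not tested.

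Mrps6, a small-subunit protein that bacteria share, had the largest change of all members between the cell types. The gene lies on chromosome 16 from 92058270 to 92112227 on the + strand of GRCm38. It had 127.5 and 110.8 CPM in Bach2 Tfh cells, against 55.8 and 48.0 CPM in Bach2 non-Tfh cells, and 134.6 and 138.0 CPM in empty vector Tfh cells, against 52.0 and 46.0 CPM in empty vector non-Tfh cells. Every Tfh library lay far above every non-Tfh library. The log2 fold change was 1.2 with Bach2 (SE 0.11, edgeR adjusted p = 4.2e-06) and 1.48 with the empty vector (SE 0.11, edgeR adjusted p = 7.4e-07), and the call held under every alternative tried. Bach2 itself left Mrps6 past no threshold, with a log2 fold change of -0.19 in Tfh cells and 0.08 in non-Tfh cells.

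Part of Mrps6 is shared with another gene. Slc5a3, which encodes a sodium-coupled myo-inositol transporter, lies on the same strand and covers 159 of the 1533 exonic bases of Mrps6, from 92058322 to 92058480. Slc5a3 had 10.7 and 10.4 CPM in Bach2 Tfh cells, against 5.56 and 4.62 CPM in Bach2 non-Tfh cells, and 10.5 and 11.1 CPM in empty vector Tfh cells, against 3.16 and 4.67 CPM in empty vector non-Tfh cells. It rose in Tfh cells by 1.05 on the log2 scale with Bach2 (SE 0.25, edgeR adjusted p = 0.00699) and by 1.46 with the empty vector (SE 0.26, edgeR adjusted p = 0.000978). The Bach2 call was lost without Bach2 non-Tfh replicate 2 (adjusted p = 0.0646). The level of Slc5a3 was less than that of Mrps6 in every library, but how reads in the shared part were divided is not given, so the counts of both are uncertain.

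Mrpl36, Mrpl54, Mrpl45 and Mrpl15 were also called in 1 vector each. Mrpl36, a small protein of the large subunit, had 95.3 and 76.9 CPM in Bach2 Tfh cells, against 64.3 and 60.7 CPM in Bach2 non-Tfh cells (log2 fold change 0.46, SE 0.11, edgeR adjusted p = 0.00877). With the empty vector it had 83.1 and 88.1 CPM in Tfh cells, against 69.1 and 71.0 CPM in non-Tfh cells, and 0.29 did not pass. Its Bach2 call was lost without Bach2 Tfh replicate 1 (adjusted p = 0.110) or without Bach2 non-Tfh replicate 2 (adjusted p = 0.0622), where its range over all alternatives was 0.000952 to 0.110. Mrpl54 had 68.2 and 73.1 CPM in empty vector Tfh cells, against 55.9 and 52.7 CPM in empty vector non-Tfh cells (log2 fold change 0.38, SE 0.11, edgeR adjusted p = 0.0268), a call lost without any 1 of those 4 libraries (adjusted p from 0.0658 to 0.184). With Bach2 it had 66.6 and 62.1 CPM in Tfh cells, against 55.2 and 48.6 CPM in non-Tfh cells, which did not pass at 0.31. In each vector the Tfh libraries of both genes lay above the non-Tfh libraries.

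Mrpl45 and Mrpl15 were lower in Tfh cells. Mrpl45, which in the large subunit lies near the tunnel exit that faces the inner membrane, had 41.2 and 36.6 CPM in Bach2 Tfh cells, against 54.6 and 46.5 CPM in Bach2 non-Tfh cells (log2 fold change -0.38, SE 0.13, edgeR adjusted p = 0.0455). With the empty vector it had 42.1 and 43.5 CPM in Tfh cells, against 52.5 and 57.0 CPM in non-Tfh cells, and -0.36 did not pass. Mrpl15 had 62.7 and 57.6 CPM in Bach2 Tfh cells, against 81.0 and 73.8 CPM in Bach2 non-Tfh cells (log2 fold change -0.36, SE 0.11, edgeR adjusted p = 0.0210), and the empty vector estimate of -0.17 did not pass. The Bach2 calls of both were lost without Bach2 Tfh replicate 2 or Bach2 non-Tfh replicate 1, with adjusted p from 0.107 to 0.286, and that of Mrpl45 also without any 1 empty vector library or Bach2 Tfh replicate 1. The averaged comparison called Mrps6, Mrpl36, Mrpl54, Mrpl52 (0.30) and Mrpl41 (0.27) higher, and Mrps18b (-0.44), Mrpl45, Mrpl12 (-0.35), Mrps28 (-0.28), Mrpl15, Mrpl20 (-0.26) and Mrpl28 (-0.24) lower in Tfh cells. Of these calls, that of Mrps28 was lost in 10 of 14 alternatives, those of Mrpl28 and Mrpl41 in 6, Mrpl12 in 5, Mrpl20 in 3, Mrpl52 and Mrpl15 in 2 and Mrps18b in 1 (adjusted p up to 0.142). Mrpl12, which is known to bind the mitochondrial RNA polymerase as well as the ribosome, had 49.4 and 34.6 CPM in Bach2 Tfh cells, against 59.5 and 53.4 CPM in Bach2 non-Tfh cells, and 44.0 and 54.5 CPM in empty vector Tfh cells, against 59.3 and 60.1 CPM in empty vector non-Tfh cells.

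**Figure D5:**
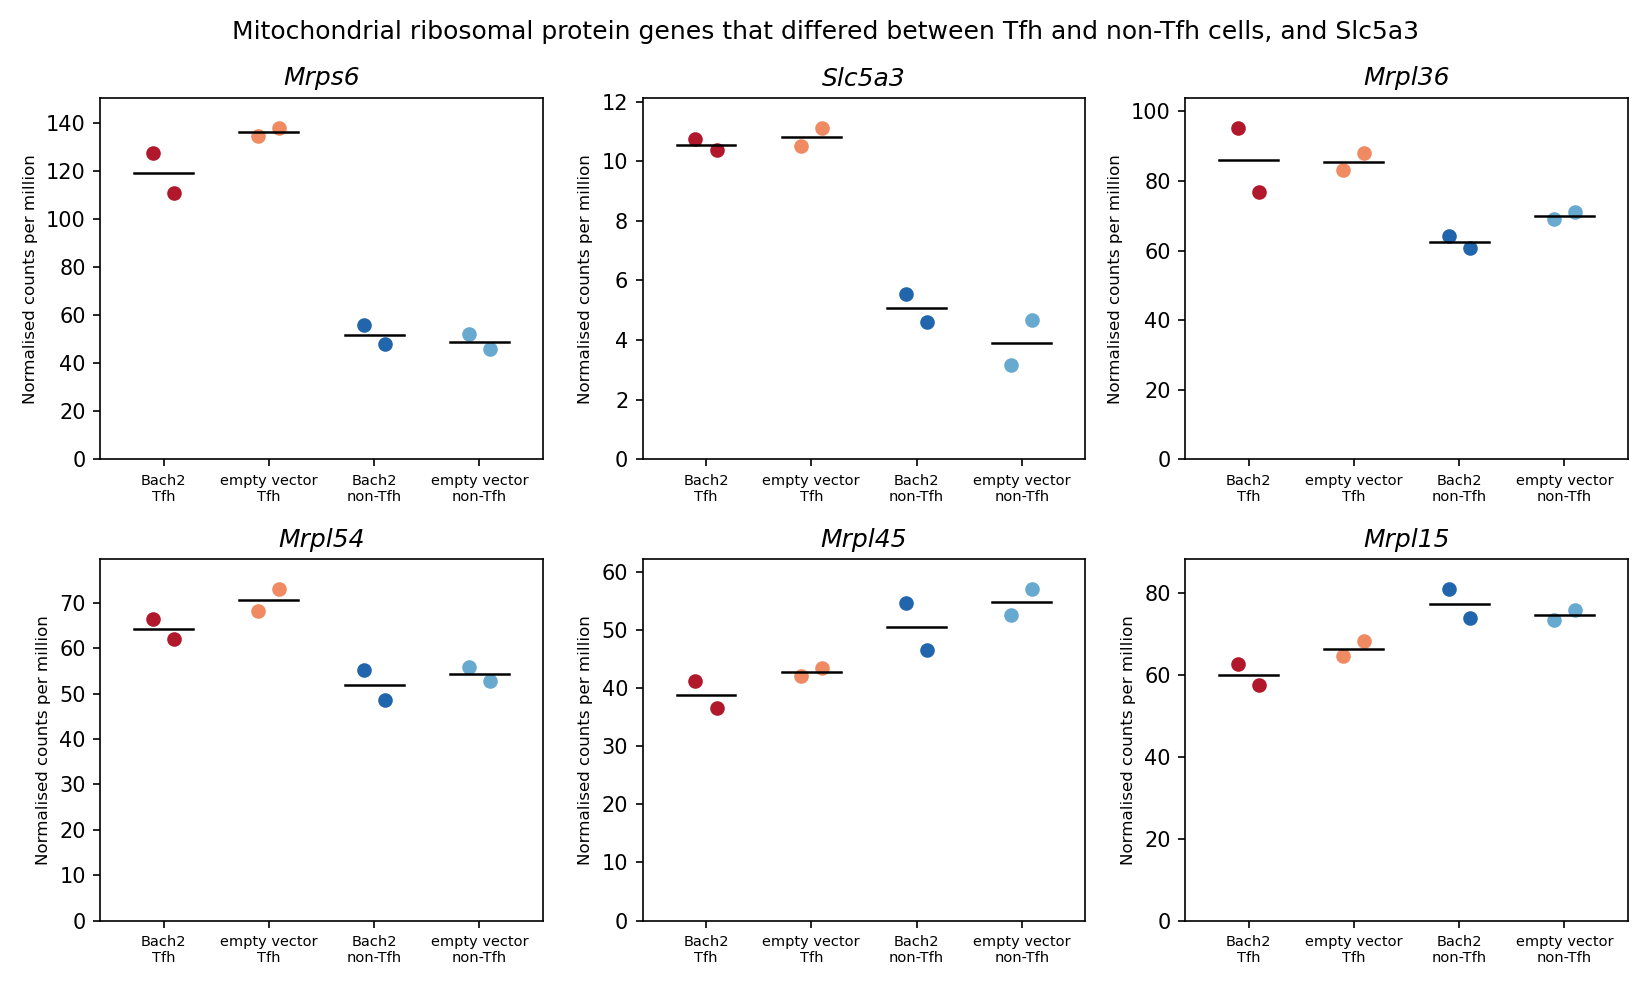
CPM of 5 mitochondrial ribosomal protein genes called in Tfh against non-Tfh cells, and of Slc5a3, which shares bases with Mrps6. Points are libraries and bars are means of 2. Mrps6 stands at 110.8 to 138.0 CPM in the Tfh libraries and 46.0 to 55.8 CPM in the non-Tfh libraries, while the other 4 ribosomal protein genes differ by far less.

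Promoter sequences are shown for 3 members, since nuclear mitochondrial genes are known for sites of the activators NRF1 and GABPA. RefSeq windows on GRCm38.p6, from 250 bases before to 50 after a gene's start, were matched by symbol for 68 of the 77 nuclear members, with 74 windows. The letters searched were GCGC, any base, then TGCGC for NRF1 and CCGGAAG for GABPA and other ETS factors, on both strands. Mrps6 is chosen for the largest difference between cell types (chr16:92058086-92058385, + strand), Mrpl45 for a difference of the other sign (chr11:97315466-97315765, + strand) and Mrpl17 as a member near the largest Bach2 estimates that holds both motifs (chr7:105811038-105811337, - strand). Capitals mark matches to either motif.
Mrps6: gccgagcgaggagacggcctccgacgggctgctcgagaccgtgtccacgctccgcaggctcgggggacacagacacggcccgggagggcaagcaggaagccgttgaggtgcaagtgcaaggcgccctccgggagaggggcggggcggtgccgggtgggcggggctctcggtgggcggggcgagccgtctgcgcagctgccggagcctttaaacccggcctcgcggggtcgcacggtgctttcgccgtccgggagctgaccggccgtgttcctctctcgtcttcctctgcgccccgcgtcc
Mrpl45: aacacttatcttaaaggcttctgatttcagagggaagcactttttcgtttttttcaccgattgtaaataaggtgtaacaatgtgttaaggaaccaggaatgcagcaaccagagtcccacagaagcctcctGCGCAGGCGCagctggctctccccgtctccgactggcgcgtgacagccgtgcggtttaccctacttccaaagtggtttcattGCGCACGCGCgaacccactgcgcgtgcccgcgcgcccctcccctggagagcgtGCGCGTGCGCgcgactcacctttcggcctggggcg
Mrpl17: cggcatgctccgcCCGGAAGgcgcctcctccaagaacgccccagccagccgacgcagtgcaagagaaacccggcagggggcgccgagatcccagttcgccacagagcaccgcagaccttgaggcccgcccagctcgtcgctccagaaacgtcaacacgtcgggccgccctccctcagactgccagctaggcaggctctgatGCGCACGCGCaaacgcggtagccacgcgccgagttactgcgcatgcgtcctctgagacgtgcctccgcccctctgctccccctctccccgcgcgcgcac
Mrps6 held neither set of letters, Mrpl45 held 3 matches to the NRF1 letters and none to the ETS letters, and Mrpl17 held 1 of each. Over the members 13 of 74 windows held the NRF1 letters, or 17.6%, against 4.60% of all 32851 windows. The ETS letters were in 25 of 74 member windows, or 33.8%, against 8.86% of all windows, and 4 members held both. TGANTCA, letters that bZIP factors of the AP-1 and Bach families bind, was in 2 of 74 member windows (2.70%), Mrps25 and Mrps5, against 7.81% of all windows. The longer element of TGC followed by TGAGTCA was in none of the member windows and in 0.155% of all windows. These matches describe the letters in the windows and show no binding.

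The nuclear genes that act with the mitochondrial ribosome were read from 7 lists. Of their 109 genes tested, 11 (10.1%) were called higher and 15 (13.8%) lower in Tfh cells in the average over both vectors, beside 18.1% higher and 19.2% lower among all genes. Together the lists thus held fewer calls than the background, and the counts below describe single genes, not a list. The first holds 5 mitochondrial ribosome proteins that go by other names. Of these Dap3, the GTP-binding protein of the small subunit, rose in Tfh cells by 0.39 on the log2 scale with Bach2 (SE 0.09, edgeR adjusted p = 0.00560) and by 0.49 with the empty vector (SE 0.09, edgeR adjusted p = 0.00135). It had 147.8 and 137.1 CPM in Bach2 Tfh cells, against 112.8 and 104.2 CPM in Bach2 non-Tfh cells, and 135.4 and 143.2 CPM in empty vector Tfh cells, against 95.9 and 102.2 CPM in empty vector non-Tfh cells. All Tfh libraries lay above all non-Tfh libraries. In the average Ptcd3 (-0.22) and Gadd45gip1 (-0.34) fell, calls lost in 7 and 5 of 14 alternatives (adjusted p up to 0.109 and 0.146).

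Among 15 genes for transcription and copying of the mitochondrial genome, 3 rose and 1 fell in Tfh cells in the average. The RNA polymerase gene Polrmt fell by 0.30, with 32.3 and 37.2 CPM in Bach2 Tfh cells, against 39.9 and 42.9 CPM in Bach2 non-Tfh cells, and 31.5 and 32.5 CPM in empty vector Tfh cells, against 41.6 and 39.5 CPM in empty vector non-Tfh cells. The mitochondrial topoisomerase Top1mt rose by 0.60, the primase-polymerase Primpol by 0.43 and Mterf2 by 0.41. The Mterf2 call was lost in 7 of 14 alternatives, that of Polrmt in 4 and that of Top1mt in 1. Of 21 RNA processing genes tested 1 rose, Hsd17b10 (0.41), a subunit of the RNase P that cuts mitochondrial tRNAs out of the precursor, and 2 fell, Tbrg4 (-0.59) and Lrpprc (-0.21), which is known to stabilise mitochondrial mRNAs. The Lrpprc call was lost in 7 of 14 alternatives (adjusted p up to 0.140).

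Among 24 genes for ribosome assembly and ribosomal RNA modification, the helicase Ddx28 (0.57) and Mpv17l2 (0.34) rose in Tfh cells in the average, while the GTPases Noa1 (-0.52) and Mtg1 (-0.52) and the helicase Dhx30 (-0.22) fell. Of 14 translation factors tested Mrrf (0.51), Gfm2 (0.25) and the membrane insertase Oxa1l (0.25) rose and C1qbp (-0.68) fell. C1qbp, an acidic matrix protein needed for mitochondrial translation, had 52.0 and 42.6 CPM in Bach2 Tfh cells, against 83.2 and 78.1 CPM in Bach2 non-Tfh cells, and 56.1 and 53.5 CPM in empty vector Tfh cells, against 79.4 and 85.2 CPM in empty vector non-Tfh cells. Of 20 tRNA synthetases Fars2 (0.37) rose and Sars2 (-0.48) and Mars2 (-0.45) fell. Lars2 of that list passed in no comparison but had 24957 to 33989 CPM, against 6.15 to 107.4 CPM for the other synthetases. It was higher in replicate 1 of each group, as mt-Rnr2 was. Which reads make up this level, and its part in the shares of counts and in the mt-Rnr2 values, was not tested. Among the genes of these 3 lists, Oxa1l and Mars2 lost their call in 6 of 14 alternatives and Dhx30 and Fars2 in 5. Gfm2 lost it in 3, Mrrf in 2 and Mpv17l2 in 1.

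The list of regulators of mitochondrial biogenesis held the largest change of the 7, that of Myc. None of the 10 tested rose in Tfh cells and 4 fell in the average, where 19.2% of all genes were called lower. The growth factor-responsive activator Myc fell by 1.76, with 19.2 and 29.3 CPM in Bach2 Tfh cells, against 86.4 and 103.1 CPM in Bach2 non-Tfh cells, and 23.1 and 26.6 CPM in empty vector Tfh cells, against 69.5 and 76.4 CPM in empty vector non-Tfh cells. The coactivator Pprc1 fell by 0.88, with 30.1 and 31.0 CPM in Bach2 Tfh cells, against 44.5 and 52.9 CPM in Bach2 non-Tfh cells, and 20.9 and 25.2 CPM in empty vector Tfh cells, against 47.0 and 50.5 CPM in empty vector non-Tfh cells. The transcription factors Nrf1 (-0.19) and Gabpa (-0.24) fell by less, calls lost in 7 and 4 of 14 alternatives (adjusted p up to 0.132 and 0.122). Over these 7 lists the averaged medians lay between -0.10 and 0.04.

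No gene of the 7 lists was called in Tfh cells alone or in non-Tfh cells alone, and 2 of 109 were called in the average over both cell types, 1 higher and 1 lower (0.917% each), beside 2.37% higher and 2.9% lower among all genes. Rexo2, a nuclease that clears short RNAs from mitochondria, fell by 0.32 (SE 0.07, edgeR adjusted p = 0.0186), with 110.7 and 111.5 CPM in Bach2 Tfh cells, against 123.8 and 148.7 CPM in empty vector Tfh cells, and 107.5 and 100.8 CPM in Bach2 non-Tfh cells, against 133.9 and 130.5 CPM in empty vector non-Tfh cells. Mrm1, a methyltransferase that is known to modify the large mitochondrial ribosomal RNA, rose by 0.50 (SE 0.12, edgeR adjusted p = 0.0307), with 21.7 and 19.8 CPM in Bach2 Tfh cells, against 16.5 and 13.0 CPM in empty vector Tfh cells, and 21.2 and 22.4 CPM in Bach2 non-Tfh cells, against 15.8 and 14.5 CPM in empty vector non-Tfh cells. The groups of both genes did not overlap in either cell type, which was not counted over all genes tested. The Rexo2 call was lost without empty vector Tfh replicate 2, either empty vector non-Tfh replicate or replicate 2 of either Bach2 group (adjusted p from 0.0502 to 0.0922). The Mrm1 call was lost without empty vector Tfh replicate 2, either empty vector non-Tfh replicate, either Bach2 Tfh replicate or Bach2 non-Tfh replicate 2 (adjusted p from 0.0531 to 0.132).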

How the data were processed

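Counts per Ensembl gene were deposited by the authors for 8 libraries, 1 whole number per gene and library. Per the labels' protocols, RNA from sorted cells was amplified with Smart-Seq v4, made into Nextera XT libraries and sequenced in pairs on a NextSeq500, with no strand mark or molecular identifiers. Per the submitters' processing notes, TopHat2, Bowtie2 and featureCounts were used with GRCm38/mm10. The sources used here do not give versions, annotation release or the treatment of multi-mapping or overlapping reads. Poly(A) priming and such choices bear on mt- and overlapping genes.

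Symbols came from GENCODE M21, which matched 37693 of 39179 IDs. The other 1486 held 0.187% to 0.205% of a library's counts. The copy Gm10222 held 0 to 2 counts. Genes passing filterByExpr (minimum count 10, minimum total 15) numbered 11475. All 8 libraries were fitted with 1 coefficient per group (4 residual degrees of freedom) by edgeR 4.0.16's robust quasi-likelihood test in R 4.3.3, with TMM factors of 0.985 to 1.01 and Benjamini-Hochberg adjustment at 0.05. Standard errors are the size of the log2 fold change divided by the square root of F. The test was checked on simulated counts. CPM are counts scaled to the TMM-adjusted library size, and levels per kb use the APPRIS principal transcript. Chi-square divided by its degrees of freedom was 5.67 to 8.81 between replicates, so no library was counted as a copy.

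Members, lists and comparisons were chosen with earlier results of these data known. The rule for naming genes took all mt- members, up to 12 Mrpl and Mrps members past the threshold per comparison (or the 4 with the largest change where fewer than 4 passed), the 3 highest and 3 lowest per kb, 3 with another role, and up to 6 genes per list past the threshold. Lars2 was named outside this rule, for its level. The comparison of cell types averaged over both vectors was added after seeing the data. Alternatives were RLE scaling, library sizes without mt- genes, no filter, DESeq2 1.42.0, only the groups compared, a replicate block, a non-robust prior and leaving out each library. A marker of the B cell list is not reported here.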

Additional observations from a re-analysis of the deposited data

Results flagged for a closer look

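Among the 90 members tested, 3 had both Bach2 libraries on one side of both empty vector libraries in Tfh cells and on the other side in non-Tfh cells. That is 3.33% of members, beside 385 of the 11475 genes tested (3.36%), so the share is that of the background. Mrpl23 had 20.4 and 17.9 CPM in Bach2 Tfh cells, against 23.9 and 28.4 CPM in empty vector Tfh cells, and 24.2 and 23.8 CPM in Bach2 non-Tfh cells, against 22.6 and 21.6 CPM in empty vector non-Tfh cells. Its interaction was -0.57 on the log2 scale (edgeR adjusted p = 0.953). Mrpl48 had 27.9 and 23.5 CPM in Bach2 Tfh cells, against 30.3 and 28.8 CPM in empty vector Tfh cells, and 29.2 and 28.4 CPM in Bach2 non-Tfh cells, against 24.0 and 26.0 CPM in empty vector non-Tfh cells, an interaction of -0.41 (edgeR adjusted p = 0.998). Mrpl47 went the other way, with 12.4 and 12.9 CPM in Bach2 Tfh cells, against 10.02 and 12.1 CPM in empty vector Tfh cells, and 13.6 and 11.5 CPM in Bach2 non-Tfh cells, against 14.8 and 14.5 CPM in empty vector non-Tfh cells, an interaction of 0.42 (edgeR adjusted p = 0.998). None of the 3 interactions passed the test.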

How the results depend on the processing

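Counts of called mt- members moved most. Without the low-count filter they were 1 for Bach2 in Tfh cells, 2 for Bach2 averaged, 4 for Tfh against non-Tfh cells with the empty vector and 9 with Bach2. With only the groups compared they were 1 for Bach2 in Tfh cells and 2 for Tfh against non-Tfh cells with the empty vector, and DESeq2 gave 0 there. Called Mrpl and Mrps members numbered 1 for Bach2 averaged without the filter. For Tfh against non-Tfh cells with the empty vector they numbered 1 in DESeq2 and 4 with only the groups compared, and with Bach2 2 with only the groups compared. Over all alternatives, the number of mt- calls moved past the margin set for such counts in 3 of 15 for Bach2 in Tfh cells. That was so in 6 of 14 for Bach2 averaged, and for Tfh against non-Tfh cells in 8 of 15 with the empty vector and 7 of 15 with Bach2. Calls over all genes moved past it in 5 of 15, 7 of 14, 3 of 15 and 0 of 15 in the same comparisons. The cause of these moves was not tested.

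With a replicate block, mt- calls were 1 for Bach2 in each cell type (mt-Rnr2 in both), 2 for Bach2 averaged, 4 and 8 for Tfh against non-Tfh cells with the empty vector and with Bach2, and 11 averaged. Same-numbered libraries deviated together with correlations from -0.0932 to 0.414 over 6 pairs of groups, the highest being Tfh with non-Tfh cells of the same vector (0.414 with Bach2 and 0.338 with the empty vector). Not all were above 0.1 and the labels name no shared source, so the numbers were not taken to pair the libraries. Those below 0.1 were between different vectors, so they do not bear on pairing of the cell types within a vector. The block had 1 replicate effect over both vectors, and a fit with pairs within a vector was not run.

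Leaving out 1 library at a time gave 0 to 1 mt- calls for Bach2 averaged, 0 to 2 for Tfh against non-Tfh cells with the empty vector, 0 to 11 with Bach2 and 3 to 12 averaged. Mrpl and Mrps calls were 0 to 1, 1 to 4, 2 to 4 and 6 to 13 in the same comparisons. The interaction ran from -0.28 to 0.0796 for mt-Rnr1 and from -0.11 to 0.33 for mt-Rnr2, so its sign turned. A lone library was assumed to vary like the other groups. The mt- median for Bach2 in non-Tfh cells ran from -0.03 to 0.11 over the alternatives. With totals taken without mt- genes, each group's mean share moved by less than its SD. The fit to only the groups compared could not be run for averaged comparisons and the interaction. mt-Nd4l and Mrpl53 had too few counts to pass the filter, and the cause was not tested.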
